A study of Homo sapiens with 4 samples.

Results

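The nuclear pore and nuclear transport genes were followed in MCF10A, a human breast epithelial cell line that is immortal but does not form tumours. They were the rows whose symbols name nucleoporins with a number, importins, transportins, exportins other than XPO5, TPR, POM121, NDC1, or the Ran factors RAN, RCC1, RANGAP1 and RANBP1, which gave 50 of 18840 genes. CSE1L, which the same choice names, and KPNA1, IPO4 and TNPO3 are not analysed here. The cells stably carried pBabe-miR-105, pBabe-MYC, pBabe-GFP or the empty pBabe vector, their poly(A) RNA was sequenced, and the GFP and vector lines are taken here as controls. Each construct is represented by 1 library. Without replicates no test between conditions was possible, and every difference compares single libraries. All 4 lines grew in the same serum-containing medium, which also held EGF, insulin, hydrocortisone and cholera toxin. The sources used here do not say whether a line was a pool or a clone.

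Proteins and RNAs cross the nuclear envelope through nuclear pore complexes, which are built from nucleoporins arranged as rings, a membrane anchor, a central channel, cytoplasmic filaments and a nuclear basket. Importins carry cargo inward and exportins carry it outward. The small GTPase Ran sets the direction, because its exchange factor RCC1 sits on chromatin and its activating protein RANGAP1 sits outside the nucleus. Dividing cells build pores both at the end of mitosis and during interphase, and several transport factors, Ran and the importins among them, also act on the mitotic spindle.

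The promoters of 5 members are shown because of the contrast between them: KPNA2, NDC1, NUP205 and RAN stood well above the controls in the library labelled miR-105, and TPR stood near them. These 5 do not represent the members as a whole. Each run is the 250 bases before the gene's start, 5′ to 3′ on the gene's strand, taken from RefSeq (GRCh38.p14). Capitals mark the CHR element TTTGAA known from cell cycle genes, the CCAAT box CCAAT, and the E-box CACGTG bound by MYC with MAX, each on either strand. The windows are chr17:68035485-68035734 (+ strand) for KPNA2, chr1:53838297-53838546 (− strand) for NDC1, chr7:135557667-135557916 (+ strand) for NUP205, chr12:130871816-130872065 (+ strand) for RAN and chr1:186375254-186375503 (− strand) for TPR.
KPNA2: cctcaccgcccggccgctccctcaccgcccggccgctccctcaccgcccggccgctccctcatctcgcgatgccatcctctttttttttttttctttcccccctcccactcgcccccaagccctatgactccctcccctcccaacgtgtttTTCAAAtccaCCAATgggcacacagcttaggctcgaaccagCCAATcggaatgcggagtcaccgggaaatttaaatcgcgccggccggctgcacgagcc
NDC1: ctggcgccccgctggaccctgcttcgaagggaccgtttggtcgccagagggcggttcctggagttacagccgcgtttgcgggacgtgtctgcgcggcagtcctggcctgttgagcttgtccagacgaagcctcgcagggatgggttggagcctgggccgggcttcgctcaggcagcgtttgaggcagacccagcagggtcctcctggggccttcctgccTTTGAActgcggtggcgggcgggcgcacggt
NUP205: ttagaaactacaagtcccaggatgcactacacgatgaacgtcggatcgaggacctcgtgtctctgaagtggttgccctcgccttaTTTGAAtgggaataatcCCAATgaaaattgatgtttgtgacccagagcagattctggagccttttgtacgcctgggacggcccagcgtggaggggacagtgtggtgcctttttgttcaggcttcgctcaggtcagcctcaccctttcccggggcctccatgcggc
RAN: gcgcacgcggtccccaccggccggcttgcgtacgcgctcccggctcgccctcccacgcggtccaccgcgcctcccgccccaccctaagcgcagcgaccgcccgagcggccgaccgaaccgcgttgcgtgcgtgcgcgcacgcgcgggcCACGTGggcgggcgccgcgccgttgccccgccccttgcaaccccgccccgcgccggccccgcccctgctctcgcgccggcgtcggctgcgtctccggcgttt
TPR: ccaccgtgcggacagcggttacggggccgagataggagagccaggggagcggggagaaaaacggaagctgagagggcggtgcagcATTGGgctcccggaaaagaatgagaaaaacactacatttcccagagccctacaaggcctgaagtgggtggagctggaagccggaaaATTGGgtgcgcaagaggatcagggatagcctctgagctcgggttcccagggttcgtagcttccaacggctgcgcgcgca
The mature strands of miR-105, the microRNA of the construct, are shown with the seed (bases 2 to 8) in capitals, as listed by RefSeq.
hsa-miR-105-5p: uCAAAUGCucagacuccuguggu
hsa-miR-105-3p: aCGGAUGUuugagcaugugcua

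Read totals were 6859698 with the miR-105 label, 9795159 with the MYC label, 14025115 in GFP and 9138429 in vector, so that 1 read was worth 0.157, 0.0948, 0.0722 and 0.108 CPM (a gene's reads scaled to a common library size, with trimmed-mean (TMM) factors) in that order. MYC mRNA stood at 463 CPM with the miR-105 label, 232 with the MYC label, 198 in GFP and 207 in vector, and was thus highest in another library than the label names. MXI1, an antagonist of MYC reported as a miR-105 target, stood at 14, 79.2, 88.9 and 81.2 CPM in the same order. Proliferation genes were also highest in the library labelled miR-105. MKI67, the Ki-67 antigen, stood at 1170 CPM with the miR-105 label, 36.3 with the MYC label, 14.9 in GFP and 11.4 in vector, and TOP2A, CCNB1 and PCNA were likewise highest with the miR-105 label, the 4 together summing to 2730, 124, 71.5 and 88.0 CPM. In bulk RNA, more cells in division and more RNA per cell cannot be told apart. All 8 epithelial markers had reads in every library except GRHL2, which had 0 reads in the library labelled MYC, a count that allows up to 0.284 CPM. Their summed level was 6320, 6610, 8190 and 10000 CPM in the library labelled miR-105, the one labelled MYC, GFP and vector. KRT17 carried the order of the sums, at 766, 1780, 5130 and 6930 CPM, and KRT14 had the same order, at 124, 234, 387 and 511 CPM. CDH1, at 368, 183, 768 and 549 CPM, and GRHL2, at 101, 0, 155 and 113 CPM, were below both controls with both labels. TP63 was highest with the MYC label, at 6.12, 77.2, 14.4 and 7.14 CPM. KRT5 ran against KRT17, at 4650, 4140, 1610 and 1760 CPM, and EPCAM and KRT18 were likewise highest with the miR-105 label. Of 6 fibroblast markers, COL3A1 had 0 reads in all 4 libraries, and the 6 summed to 102, 19.8, 141 and 98.5 CPM, nearly all from FAP and COL1A1. The 3 immune markers summed to at most 19.7 CPM, nearly all CD68, the 3 endothelial markers to 3.62 CPM with the miR-105 label, 91.8 with the MYC label, 49.3 in GFP and 45.9 in vector, mostly KDR in the last 3, and the 3 erythroid markers to at most 0.941 CPM.

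Of the 50 genes, 49 averaged 1 CPM or more across the libraries and were compared, alongside 12484 genes in all. The exception was NUP210L, a copy of NUP210 known from testis, with 1 read with the miR-105 label, 0 with the MYC label, 2 in GFP and 3 in vector. A gene was counted as higher or lower if its log2 fold of CPM + 0.5 passed 1.5-fold against GFP and against vector alike. Intervals are exact 95% counting intervals and leave out the spread between cultures, which 1 library cannot give.

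In the library labelled miR-105, most of the measured transport machinery stood above both controls. Of the 49 genes, 41 were higher, 1 was lower and 7 were neither, against 24.0% higher and 24.7% lower among all genes compared. The median log2 fold was 1.20, or 2.29-fold, against 0.0050 over all genes compared. The summed level of the 50 genes was 11850 CPM in this library, 5468 in the one labelled MYC, 5183 in GFP and 4444 in vector. In 45 of the 49 genes the excess over the nearer control was larger than the gap between the controls, which held for 32.7% of all genes compared. The library labelled miR-105 held the highest of the 4 levels for 45 of the 49 genes, against 35.8% of all genes compared. At a 2-fold threshold 27 were higher and 1 lower, against 14.7% and 16.6% of all genes. The proliferation genes were highest in the same library, and their part in these differences was not tested.

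**Figure D1:**
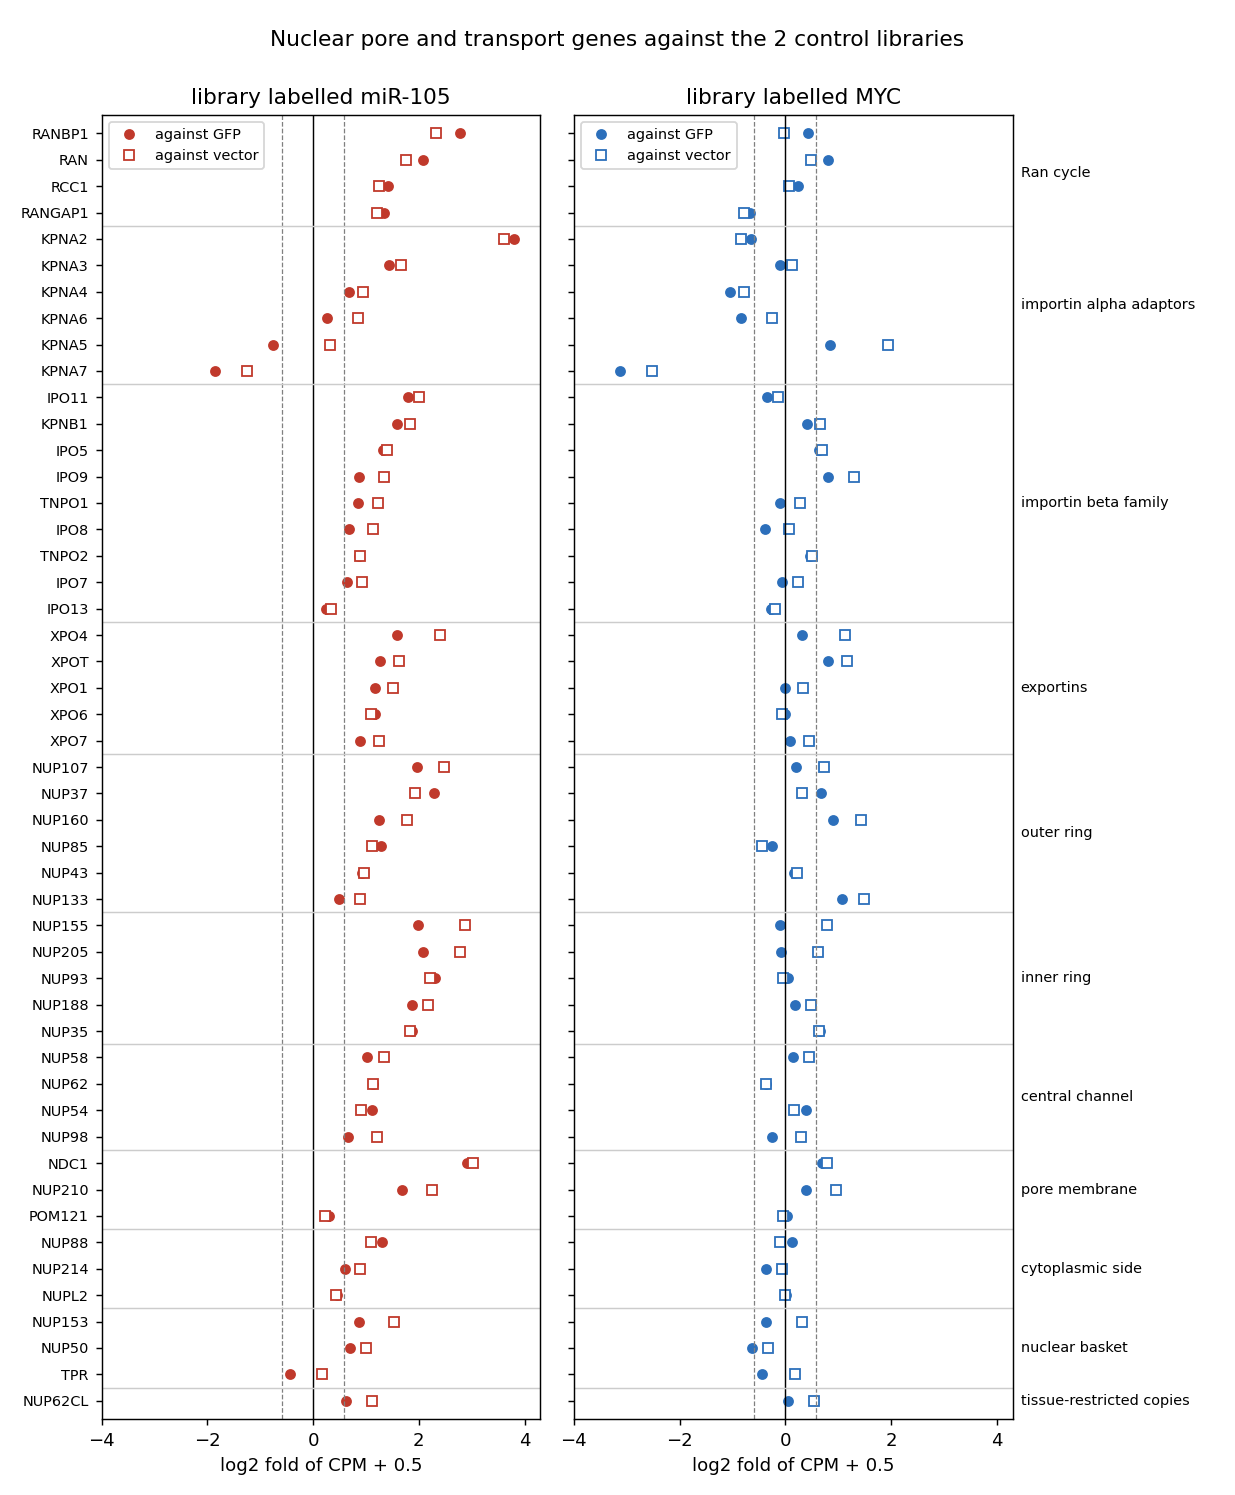
Log2 fold of CPM + 0.5 for the 49 compared genes, grouped by role, in the library labelled miR-105 (left panel) and the one labelled MYC (right panel). Filled circles are folds against GFP, open squares folds against vector, and dashed lines mark 1.5-fold. On the left 41 genes lie beyond the upper dashed line with both symbols and on the right 8 do.

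All 4 members of the Ran cycle were higher with the miR-105 label, against 24.0% of all genes compared. RAN itself stood at 823 CPM with the miR-105 label, 341 with the MYC label, 195 in GFP and 242 in vector. That was 4.21-fold (4.02 to 4.41) above GFP and 3.39-fold (3.23 to 3.57) above vector. RANBP1, which helps RANGAP1 to discharge Ran, stood at 254, 49.6, 36.8 and 50.5 CPM in the same order, 6.90-fold (6.24 to 7.64) and 5.04-fold (4.54 to 5.59) above GFP and vector. RCC1, the exchange factor on chromatin, stood at 228, 102, 85.6 and 96.2 CPM, and RANGAP1 at 366, 90.9, 144 and 157 CPM. RCC1 was thus 2.67-fold (2.47 to 2.88) and 2.37-fold (2.18 to 2.58) above the controls, and RANGAP1 2.54-fold (2.39 to 2.69) and 2.33-fold (2.18 to 2.49). The library labelled miR-105 was the high one for each of the 4 genes, and vector lay above GFP in each.

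In the library labelled MYC the same 4 genes differed from each other. RANGAP1 was lower, 1.59-fold (1.47 to 1.72) below GFP and 1.73-fold (1.59 to 1.88) below vector. RAN was 1.74-fold (1.66 to 1.83) above GFP and 1.41-fold (1.33 to 1.48) above vector, which passed the threshold against GFP alone. RCC1 and RANBP1 were within 1.35-fold of both controls. RCC1 shares exon sequence with SNHG3 on the same strand, so reads could be assigned to either. IPO11, KPNA6, NUP62, NUP133, NUP188 and TPR also overlap other genes on the same strand, with the same limit.

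**Figure D2:**
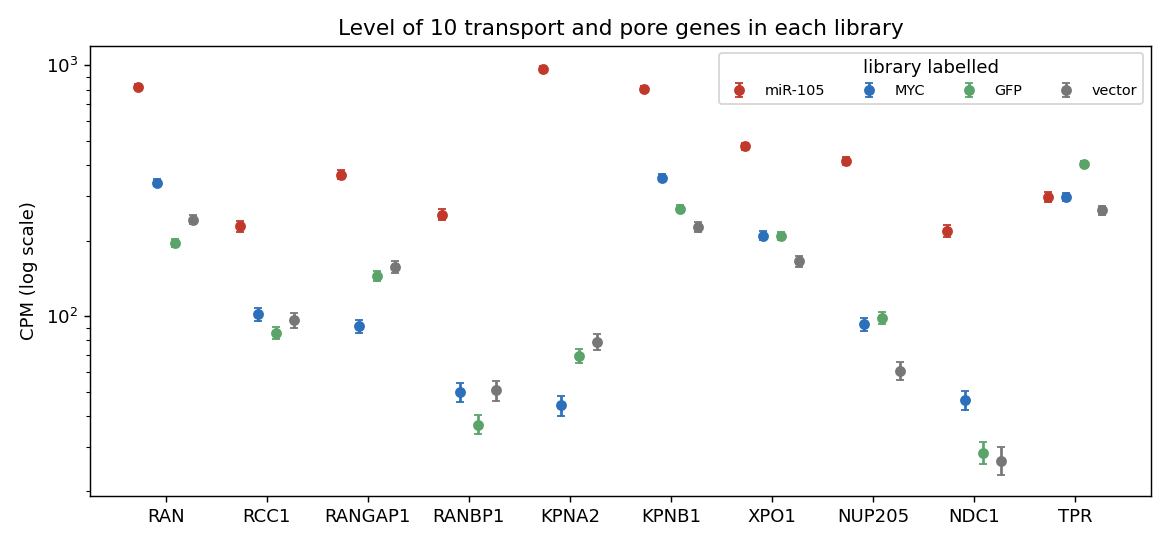
CPM (log axis) of 10 transport and pore genes in each library, with exact Poisson 95% intervals that cover counting error. The library labelled miR-105 (red) is above the others for every gene shown except TPR, which is highest in GFP at 405 CPM.

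Importin alpha proteins are adaptors that read the classical nuclear localisation signal and hand the cargo to importin beta. Among them KPNA2 had the largest excess of all members with the miR-105 label. It stood at 967 CPM with the miR-105 label, 44.0 with the MYC label, 69.2 in GFP and 78.6 in vector, 13.97-fold (13.1 to 15.0) above GFP and 12.3-fold (11.4 to 13.3) above vector in the first. In the library labelled MYC it was the lowest of the 4, 1.57-fold (1.41 to 1.76) below GFP and 1.79-fold (1.59 to 2.01) below vector. KPNA3 stood at 212, 73.1, 77.9 and 66.7 CPM, 2.72-fold (2.51 to 2.95) and 3.18-fold (2.89 to 3.50) above the controls with the miR-105 label and near them with the MYC label. KPNA2, like RAN, has pseudogene copies, with which its reads could be shared.

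KPNA4, an adaptor known for importing NF-kB, stood at 256 CPM with the miR-105 label, 76.7 with the MYC label, 159 in GFP and 132 in vector. It was higher in the first, 1.61-fold (1.51 to 1.72) and 1.94-fold (1.80 to 2.09), and lower in the library labelled MYC, 2.07-fold (1.91 to 2.24) below GFP and 1.72-fold (1.58 to 1.89) below vector. KPNA6 stood at 235, 109, 195 and 130 CPM, and its excess in the library labelled miR-105 was 1.21-fold (1.13 to 1.29) over GFP and 1.81-fold (1.67 to 1.95) over vector, so it passed against vector alone.

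The scarce adaptors KPNA5 and KPNA7 departed from the rest. KPNA5 had 18 reads with the miR-105 label, 102 with the MYC label, 71 in GFP and 20 in vector, and was higher with the MYC label by 1.89-fold (1.38 to 2.59) over GFP and 4.47-fold (2.75 to 7.63) over vector. KPNA7, known from oocytes and early embryos, had 6 reads, 1 read, 65 and 27 in the same order, and was the single member below both controls with the miR-105 label, 4.99-fold (2.17 to 14.1) below GFP and 3.10-fold (1.26 to 9.19) below vector. With the MYC label the ratio was 49.5-fold (8.58 to 1986) below GFP and 30.8-fold (5.08 to 1261) below vector, resting on the single read. GFP and vector themselves differed 2.37-fold (1.43 to 4.11) in KPNA5 and 1.61-fold (1.01 to 2.62) in KPNA7.

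Per length of exon the mixture of the 6 adaptors analysed here differed between libraries. KPNA1 is not among them, so the shares below are not those of all importin alpha mRNA. KPNA2 made up 76.2% of the summed CPM per kb of the 6 importin alpha mRNAs with the miR-105 label, 28.0% with the MYC label, 27.8% in GFP and 36.6% in vector. The sum itself was 456 CPM per kb with the miR-105 label, 56.4 with the MYC label, 89.6 in GFP and 77.4 in vector. Lengths are the union of coding-transcript exons in GENCODE 29, which need not be the annotation used for counting.

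**Figure D3:**
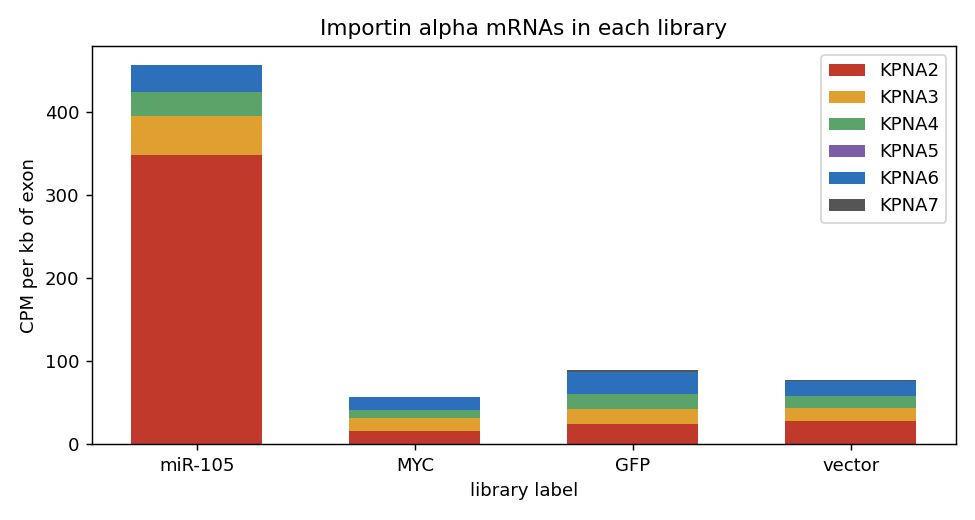
Level of the 6 importin alpha mRNAs analysed here, which leave out KPNA1, per kb of exon (stacked bars, CPM per kb) in each library. The KPNA2 segment is 348 CPM per kb with the miR-105 label, 15.8 with the MYC label, 24.9 in GFP and 28.3 in vector, while each other segment differs by fewer CPM per kb.

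Of the 9 importin beta family receptors, which bind cargo or adaptor and pass through the channel, 8 were higher with the miR-105 label. The share among all genes compared was 24.0%. The median log2 fold of the 9 was 1.04. KPNB1, the partner of importin alpha, stood at 808 CPM with the miR-105 label, 357 with the MYC label, 268 in GFP and 227 in vector, 3.02-fold (2.89 to 3.15) above GFP and 3.56-fold (3.38 to 3.75) above vector. IPO11 had the largest mean fold of the family, at 89.4, 19.9, 25.5 and 21.8 CPM in the same order, 3.51-fold (3.07 to 4.02) and 4.09-fold (3.48 to 4.83) above the controls. IPO5, known for importing ribosomal proteins, stood at 579, 358, 230 and 221 CPM. TNPO1, which imports hnRNP A1, stood at 457, 237, 253 and 194 CPM. IPO13, which carries cargo both ways, was the exception, at 57.9, 40.0, 48.6 and 45.6 CPM and within 1.27-fold of both controls in the library labelled miR-105. IPO7, IPO8, IPO9 and TNPO2, a close copy of TNPO1, were between 1.56-fold and 2.55-fold above the controls there.

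In the library labelled MYC, 2 of these 9 receptors (22.2%) were higher and 0 lower, against 16.6% and 17.2% of all genes compared, a share of higher genes near that background. IPO9, known for binding histones, stood at 234 CPM there, against 133 in GFP and 95.2 in vector, 1.76-fold (1.66 to 1.87) and 2.45-fold (2.27 to 2.65) higher, and at 243 CPM with the miR-105 label. IPO5 was 1.56-fold (1.49 to 1.63) above GFP and 1.62-fold (1.54 to 1.71) above vector. IPO11 had the lowest mean log2 fold of the family there, −0.24, and KPNB1 passed 1.5-fold against vector alone.

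All 5 exportins were higher with the miR-105 label, against 24.0% of all genes compared. XPO1, the exportin for leucine-rich export signals, stood at 475 CPM with the miR-105 label, 210 with the MYC label, 209 in GFP and 166 in vector, 2.27-fold (2.16 to 2.39) above GFP and 2.87-fold (2.70 to 3.05) above vector. XPO4 stood at 152, 63.1, 50.6 and 28.4 CPM, 3.01-fold (2.73 to 3.32) and 5.35-fold (4.66 to 6.16) above the controls, which themselves differed 1.78-fold (1.54 to 2.06). XPOT, the exportin for tRNA, stood at 240, 175, 99.3 and 77.8 CPM. It was the single exportin counted as higher with the MYC label, 1.76-fold (1.64 to 1.89) above GFP and 2.25-fold (2.06 to 2.45) above vector. That share of the 5 exportins, 20.0%, was near the 16.6% of all genes compared. XPO6, which exports actin, and XPO7 were 1.86-fold to 2.39-fold above the controls with the miR-105 label. With the MYC label XPO6 had the lowest mean log2 fold of the 5, −0.03.

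Among the nucleoporins, 21 of the 25 compared were higher with the miR-105 label and 0 lower, against 24.0% and 24.7% of all genes compared. Their median log2 fold was 1.20. The inner ring, which lines the membrane side of the channel, held the largest shift as a group, with all 5 members at least 2-fold above both controls and a median log2 fold of 2.25, or 4.76-fold. NUP205 stood at 415 CPM with the miR-105 label, 92.6 with the MYC label, 98.02 in GFP and 60.2 in vector, 4.23-fold (3.96 to 4.52) and 6.89-fold (6.29 to 7.57) above the controls. NUP155 stood at 120 CPM with the miR-105 label, 27.9 with the MYC label, 30.1 in GFP and 16.0 in vector. The library labelled MYC lay between the controls for these 2 large scaffold genes.

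NUP93, which joins the inner ring to the channel, stood at 117 CPM with the miR-105 label, 24.4 with the MYC label, 23.4 in GFP and 25.1 in vector. Its controls differed by 1.07-fold, and it was 5.01-fold (4.39 to 5.73) above GFP and 4.68-fold (4.03 to 5.44) above vector. NUP188, a relative of NUP205, stood at 234, 72.4, 63.8 and 51.5 CPM. NUP35 stood at 29.2, 12.4, 7.66 and 7.78 CPM. It was the single inner ring gene counted as higher with the MYC label, 1.62-fold (1.25 to 2.12) above GFP and 1.60-fold (1.19 to 2.16) above vector. That share of the 5 inner ring genes, 20.0%, was near the 16.6% of all genes compared.

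The outer ring, a Y-shaped scaffold that also goes to kinetochores in mitosis, had 5 of 6 members higher with the miR-105 label. The share among all genes compared was 24.0%. The median log2 fold of the 6 was 1.36. NUP107 stood at 114 CPM with the miR-105 label, 33.4 with the MYC label, 28.9 in GFP and 19.9 in vector, 3.93-fold (3.47 to 4.451) and 5.71-fold (4.85 to 6.75) above the controls. NUP37 stood at 67.0, 21.6, 13.3 and 17.3 CPM, 5.04-fold (4.23 to 6.02) and 3.87-fold (3.22 to 4.67) above them. NUP133 had another order, at 102 CPM with the miR-105 label, 153 with the MYC label, 72.2 in GFP and 54.4 in vector. Its mean log2 fold with the MYC label, 1.28, was the largest among the 25 nucleoporins compared, which do not include AHCTF1. NUP133 was 2.12-fold (1.96 to 2.30) above GFP and 2.82-fold (2.55 to 3.12) above vector. NUP160 was higher in both libraries, at 119 and 93.1 CPM against 49.5 in GFP and 34.3 in vector. NUP85 stood at 84.9, 28.7, 34.4 and 39.0 CPM and was the lowest outer ring gene by fold with the MYC label, at a mean log2 fold of −0.35. NUP43 stood at 68.2, 40.5, 35.9 and 34.8 CPM.

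The pore membrane genes differed widely among themselves. NDC1, a transmembrane anchor of the pore, stood at 218 CPM with the miR-105 label, 46.1 with the MYC label, 28.4 in GFP and 26.4 in vector. It was 7.69-fold (6.87 to 8.62) above GFP and 8.28-fold (7.22 to 9.52) above vector with the miR-105 label, behind KPNA2 alone, and 1.62-fold (1.42 to 1.86) and 1.75-fold (1.495 to 2.05) above them with the MYC label. NUP210 stood at 134, 54.6, 41.8 and 27.8 CPM, 3.22-fold (2.89 to 3.58) and 4.84-fold (4.203 to 5.58) above the controls with the miR-105 label. POM121, also an anchor, stood at 440, 365, 355 and 376 CPM, within 1.24-fold of both controls in either library. POM121 and POM121C are near-identical, and reads could be split between them. POM121C, outside the rule, stood at 355, 204, 186 and 147 CPM in the same order. With the miR-105 label it was 1.91-fold (1.80 to 2.02) above GFP and 2.41-fold (2.25 to 2.58) above vector.

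The central channel genes, whose disordered FG repeats form the barrier, were all 4 higher with the miR-105 label, against 24.0% of all genes compared. With the MYC label 0 of 4 passed the threshold, where 16.6% of all genes were higher and 17.2% lower. In so small a group that count is not far from the background. NUP58 stood at 133 CPM with the miR-105 label, 71.9 with the MYC label, 64.9 in GFP and 52.3 in vector. NUP62 stood at 224, 78.8, 102 and 101 CPM and was 1.29-fold (1.19 to 1.41) below GFP and 1.29-fold (1.17 to 1.41) below vector with the MYC label. NUP98, whose transcript also encodes the outer ring protein NUP96, stood at 266, 142, 168 and 115 CPM. It was 1.59-fold (1.49 to 1.69) above GFP with the miR-105 label, close to the threshold. NUP54 stood at 65.6, 39.4, 29.98 and 34.9 CPM.

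On the cytoplasmic side 2 of 3 genes were higher with the miR-105 label, and in the nuclear basket 2 of 3, against 24.0% of all genes compared. At 2-fold the counts were 1 of 3 and 0 of 3, against 14.7%, and groups so small decide little. NUP88 stood at 108 CPM with the miR-105 label, 47.5 with the MYC label, 43.5 in GFP and 50.7 in vector, NUP214 at 124, 63.1, 81.0 and 66.3 CPM. NUPL2, a docking site for mRNA export factors, stood at 51.1, 37.5, 37.4 and 37.6 CPM, 1.37-fold (1.19 to 1.57) and 1.36-fold (1.17 to 1.59) above the controls. NUP153, which recruits other pore proteins, stood at 189, 80.1, 103 and 64.7 CPM, and NUP50, a cofactor of import, at 192, 76.8, 119 and 96.0 CPM. TPR, the main filament of the basket, stood at 298, 299, 405 and 265 CPM. It was 1.36-fold (1.29 to 1.44) below GFP and 1.13-fold (1.06 to 1.20) above vector with the miR-105 label, so its 2 folds had opposite signs, and the same was true with the MYC label. NUP62CL, a shortened copy of NUP62, had 32 reads with the miR-105 label, 34 with the MYC label, 43 in GFP and 19 in vector, and its interval against GFP, 0.990 to 2.61, included no difference.

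**Figure D4:**
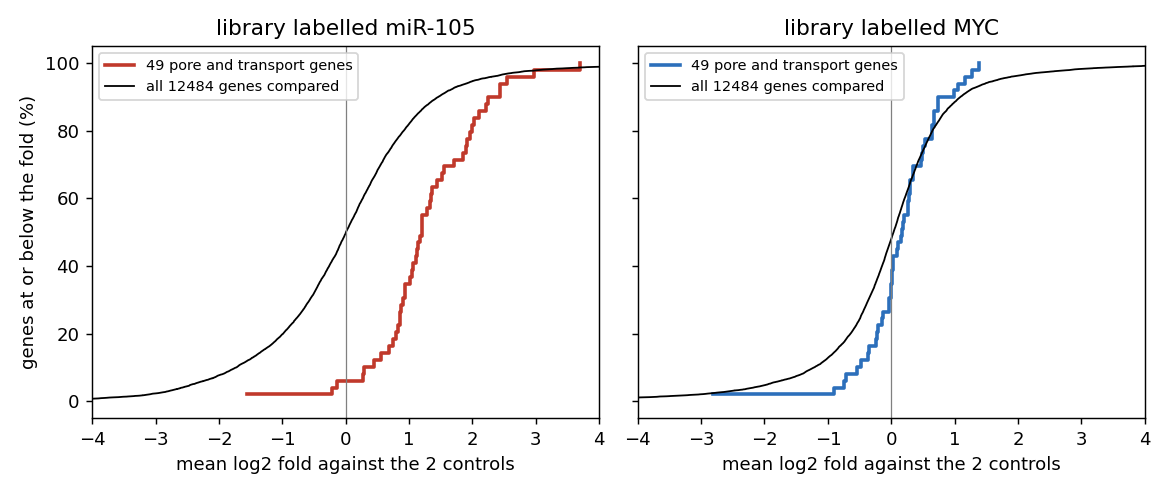
Cumulative share of genes (%) by mean log2 fold against the controls, for the 49 pore and transport genes (coloured steps) and all 12484 genes compared (black). The coloured steps lie to the right of the black line in the library labelled miR-105 (median 1.20 against 0.0050) and close to it in the one labelled MYC (median 0.17 against 0.04).

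In the library labelled MYC, 8 of the 49 genes were higher, 4 lower and 37 neither, against 16.6% higher and 17.2% lower among all genes compared, so the share that was higher, 16.3%, was near that background. The split was 9 higher to 2 lower with library totals alone and 8 to 2 with the deposited values. The median log2 fold was 0.17, against 0.04 over all genes compared. The 8 higher genes were NUP133, NUP160, NUP35, NDC1, XPOT, IPO5, IPO9 and KPNA5, and the 4 lower were KPNA2, KPNA4, KPNA7 and RANGAP1. With 2-fold as the threshold, NUP133 alone was higher and KPNA7 alone lower, against 9.03% and 10.4% of all genes. In 19 of the 49 genes the difference from both controls exceeded the gap between them, against 54.6% of all genes compared.

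Set directly beside the library labelled MYC, the library labelled miR-105 was at least 1.5-fold higher in 38 of the 49 genes and lower in 2, against 30.3% and 29.3% of all genes compared. The median log2 fold was 1.18, against 0.05 over all genes. KPNA2 was 22.0-fold (20.0 to 24.2) higher, RANBP1 5.13-fold (4.64 to 5.67), NUP93 4.82-fold (4.17 to 5.57), NDC1 4.74-fold (4.27 to 5.27) and IPO11 4.49-fold (3.83 to 5.29). The 2 lower genes were NUP133, 1.51-fold (1.38 to 1.66), and KPNA5, 3.43-fold (2.06 to 6.01). IPO9, TPR and POM121 differed by less than 1.21-fold between the pair.

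The control libraries differed from each other in some of the same genes. GFP was at least 1.5-fold above vector in 7 of the 49 genes (14.3%) and below it in 0, against 13.0% and 6.99% of all genes compared. The share above vector was thus near that background. The median log2 fold was 0.29 against 0.03. At 2-fold KPNA5 alone was higher and 0 were lower, against 3.06% and 1.03% of all genes. The 7 past 1.5-fold were XPO4, KPNA5, KPNA7, NUP155, NUP205, NUP153 and TPR. NUP155 differed by 1.88-fold (1.56 to 2.29), NUP205 by 1.63-fold (1.47 to 1.80), NUP153 by 1.60-fold (1.45 to 1.76) and TPR by 1.53-fold (1.46 to 1.61). All 4 Ran cycle genes lay below vector in GFP, RANBP1 by 1.37-fold (1.21 to 1.56). Of the called genes in the library labelled miR-105, NUP155 and NUP205 thus carry a wider range of folds than NUP93 or NDC1.

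Other pore and transport genes outside the rule were read from a list of 31, all of which passed the filter. With the miR-105 label 14 of 31 (45.2%) were higher and 1 (3.23%) lower, against 24.0% and 24.7% of all genes compared, and their median log2 fold was 0.68. The largest was ALYREF, the mRNA export adaptor, at 108 CPM with the miR-105 label, 23.3 with the MYC label, 14.8 in GFP and 18.7 in vector. The others were the pore subunits SEH1L, GLE1, AHCTF1, POM121C, RAE1 and AAAS, the export factors NXT1, THOC3, DDX19A, DDX19B and DDX39B, the exportin XPO5 and RANBP3. With the MYC label 5 of 31 were higher and 1 lower, against 16.6% and 17.2% of all genes compared, so the share that was higher, 16.1%, was near that background, and the median was 0.38. AHCTF1, which seeds pore assembly on chromatin and binds the outer ring, stood at 294.5 CPM there, against 61.7 in GFP and 36.4 in vector, 4.77-fold and 8.08-fold higher, and at 107 CPM with the miR-105 label. GLE1, DDX39B, AAAS and DDX19B were the other 4. RANBP17, an importin beta relative, was lower with both labels, at 17.9 and 19.9 CPM against 51.4 in GFP and 37.0 in vector.

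Promoters were matched for 43 of the 50 genes and searched over the 250 bases before the start on both strands. TTTGAA occurred in 9 of 43 (20.9%), against 13.6% of all 27305 RefSeq promoters and 8.35% of those of 9633 compared genes outside the set. The 9 were KPNA2, NDC1, NUP205, NUP35, NUP37, NUP98, NUP153, IPO7 and IPO11. Their median log2 fold was 1.90 with the miR-105 label, against 1.18 for the 33 compared members without the letters, and 0.09 against 0.16 with the MYC label. In the runs shown above the element starts 99 bases before the start in KPNA2, 31 in NDC1 and 165 in NUP205. Those runs do not represent the members. NUP93 and NUP107 lacked the letters at mean log2 folds of 2.25 and 2.22 with the miR-105 label. NUP98 and IPO7 held them at 0.93 and 0.79.

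CACGTG occurred in 6 of 43 (14%), those of RAN, KPNA3, IPO7, TNPO2, NUP188 and NUP50, against 6.49% of all promoters and 8.87% of compared genes. Their median log2 fold was 1.22 with the miR-105 label and 0.21 with the MYC label, against 1.20 and 0.13 for the members without it. CCAAT occurred in 21 of 43 (48.8%), against 33.0% and 35.0%. The E2F site TTTCGCGC occurred in 1 of 43 (2.33%), against 0.469% of all promoters and 0.737% of compared genes. The E2F site TTTGGCGC occurred in 0 of 43, against 0.553% and 0.924%. Both sites are rare, so counts over 43 promoters decide little. A match is a run of letters and not evidence of binding.

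Matches to the miR-105-5p seed, GCATTTG, lay in the 3′ UTR of 3 of the 48 members with an annotated one (6.25%), against 14.4% of 11911 compared genes outside the set, with median 3′ UTR lengths of 1224 and 993 bases. Matches to the 3p seed, ACATCCG, lay in 0 members and 1.24% of the other genes. The 5p matches are shown in capitals within 30 bases of the transcript (GENCODE 29, GRCh38), at chr1:201881419-201881448 (+ strand) for IPO9, chr3:160501183-160501212 (− strand) for KPNA4, and chr22:45185493-45185522 and chr22:45187544-45187573 (+ strand) for NUP50.
IPO9: tgcctttcctgtGCATTTGccaggcagatg
KPNA4: aggtttccctgtGCATTTGcaccagatgaa
NUP50, upstream match: agatgcgcatagGCATTTGtaccatgatca
NUP50, downstream match: tttgttttttgaGCATTTGtcagttattct
All 3 genes were higher in the library labelled miR-105, with a median log2 fold of 0.85, against 1.24 for the 44 compared members without a match. KPNA7, the single member that was lower there, held no match.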

How the data were processed

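Poly(A) RNA-seq of 4 MCF10A lines was analysed, with 1 library per construct. Per the submitters' processing notes the authors used TopHat2 and edgeR with hg19. The sources used here give no versions, read counter, annotation or strand setting. The deposited table held a depth-adjusted signal per gene and not raw counts: the values were not whole and looked like edgeR's pseudo-counts, made by mapping each library's quantiles to a shared size. That mapping was inverted at a dispersion of 0.0553, which gave whole reads for 100% of 18859 values in every library, with a largest relative residual of 3.98e-06 and a tolerance of 1e-05. The inversion and the calls were tested on simulated data. For the inversion those data were made with the same mapping, so the test cannot show that the deposited values arose that way. After 19 repeated lines were dropped, 18840 genes remained. CPM used TMM factors of 0.9295 (miR-105), 1.0768 (MYC), 0.9871 (GFP) and 1.0122 (vector), and 0.5 CPM was added before log2. With 1 library per construct no count test was run.

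Fold intervals are conditional binomial (Clopper-Pearson) at 95%. Reads are not independent molecules, so the intervals cover counting error alone. Alternatives changed the scaling, the values used, the filter, the added CPM, the threshold and the control library. Named genes were the 4 Ran factors, the highest and lowest member of each role group by mean log2 fold in each library, and the 8 largest absolute folds per library, and the remaining members were named afterwards so that each is accounted for. Members, lists and thresholds were chosen with earlier results of these data known. Of the 50 members, 20 have an exon that overlaps another gene in GENCODE 29. In 7 of them, IPO11, KPNA6, NUP62, NUP133, NUP188, RCC1 and TPR, the other gene is on the same strand. RAN and KPNA2 have pseudogene copies. The reads of all these members may be shared. Python 3.11.15, numpy 2.4.6, scipy 1.17.1 and pandas 2.3.3 were used.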

Additional observations from a re-analysis of the deposited data

How the results depend on the processing

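For the library labelled miR-105, between 37 and 43 of the members were higher and at most 2 lower under every alternative at 1.5-fold. Leaving out the library labelled MYC, an alternative added after the data had been seen, gave 41 and 1. The share of all genes higher ran from 16.6% with no filter to 31.0% with vector alone as control. The share lower ran from 18.8% with no filter to 31.0% with GFP alone. A 2-fold threshold gave 27 higher, a mean of at least 5 CPM gave 0 lower, GFP alone as control gave 2 lower, and library totals alone gave a median log2 fold of 1.09. Library totals also took IPO7, NUP98, NUP214 and NUP62CL under the threshold. For the library labelled MYC, 2 were lower when scaling used library totals and 2 when the values were used as deposited, where KPNA2 and RANGAP1 no longer passed. A 2-fold threshold gave 1 higher and 1 lower, and vector alone as control gave 14 of 49 higher, where the share of all genes higher was also larger, 24.2%. Leaving out the library labelled miR-105, likewise added later, gave 8 and 4. In GFP against vector, 2-fold left 1 higher. Library totals, median-of-ratios factors, the deposited values and a mean of at least 5 CPM each left 5 higher. Median-of-ratios factors also moved the split of all genes from 13.0% higher and 6.99% lower to 10.5% and 9.17%. In miR-105 against MYC, 1 gene was lower with a mean of at least 5 CPM, with 2 CPM added and at 2-fold. Library totals alone shift the median log2 fold of all genes to −0.095 with the miR-105 label and 0.14 with the MYC label, where it was 0.0050 and 0.04, so smaller differences of single members depend on the scale. No called member changed sign under any alternative run. No paired analysis was possible because each construct had 1 library and the labels give no replicate numbers. Depth limits KPNA5, KPNA7, NUP62CL and NUP210L, where few reads stand behind each value.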
